A study of Mus musculus with 8 samples.

Results

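Amacrine cells are the inhibitory interneurons of the inner retina. They use GABA or glycine, and they shape the signals that bipolar cells pass to retinal ganglion cells. Their fate is set in dividing progenitors by a relay of transcription factors. Foxn4, a forkhead protein, acts in progenitors upstream of Ptf1a, a basic helix-loop-helix protein needed for amacrine and horizontal cells, and the AP-2 proteins (genes Tcfap2a, Tcfap2b and Tcfap2c in these files, Tfap2a to Tfap2c in current nomenclature) act after Ptf1a in postmitotic cells. Barhl2, Neurod6 and Nr4a2 are linked to the choice among amacrine subtypes. Fezf2 is a zinc finger repressor best known from projection neurons of the cortex.

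These 9 genes were taken by symbol from a table of 21827 genes, and all 9 had a value in each of 8 RNA sequencing libraries of mouse retina. The mice were of the slc:ICR background, a normal stock with no engineered allele or drug given in the labels. Whole retina was sampled at embryonic day 15 (E15) and E18. At postnatal day 2 (P2), P5 and P8, pooled retinas were dissociated with trypsin and sorted by antibody for Cd73, a surface enzyme of rod precursors and rods, into a positive fraction (Cd73PC) and a negative fraction (Cd73NC). Cd73NC were meant to hold the other retinal types together (amacrine, bipolar, horizontal and ganglion cells, Müller glia and progenitors). No library is thus of purified amacrine cells, and the share of each type was not measured. With 1 library per condition there were no replicates, so the comparisons are descriptions without a test.

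Levels are in FPKM, the fragments of a transcript scaled to its length and to the mapped reads of the library, which can be set side by side between genes. Cufflinks, the program that made the values, gives each a lower and an upper 95% bound. The bounds describe the estimate within a library and not the spread between animals. Depth was estimated from single-exon genes, whose FPKM steps by whole reads, and came to 14500000 to 24300000 reads per library. The sort separated rods. Nt5e, which encodes Cd73, stood at 2.43, 31.4 and 9.38 FPKM in Cd73NC at P2, P5 and P8 and at 97.3, 131 and 124 FPKM in Cd73PC. All 12 rod markers were over 1.5-fold higher in Cd73PC at each of the 3 stages. All 12 were also higher in Cd73NC at P5 than at P2, and Nrl, the rod determinant, was at 28.3, 277 and 107 FPKM there at P2, P5 and P8. All 13 ganglion cell markers were over 1.5-fold lower in P2 Cd73NC than in E18 retina, although Stmn2 was still at 62.7 FPKM there. In bulk libraries such as these, fewer cells of a type and less RNA per cell cannot be told apart.

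The 9 genes did not follow 1 course. Ptf1a, Tcfap2a, Tcfap2b, Tcfap2c, Barhl2 and Nr4a2 were highest in Cd73NC at P2, Foxn4 was highest at E15, Neurod6 at P5 in Cd73NC and Fezf2 at P8 in Cd73NC. Tcfap2b reached the highest level of the group, 85.9 FPKM, above 96.2% of all genes in that library, and Neurod6 never passed 1.07 FPKM.

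**Figure D1:**
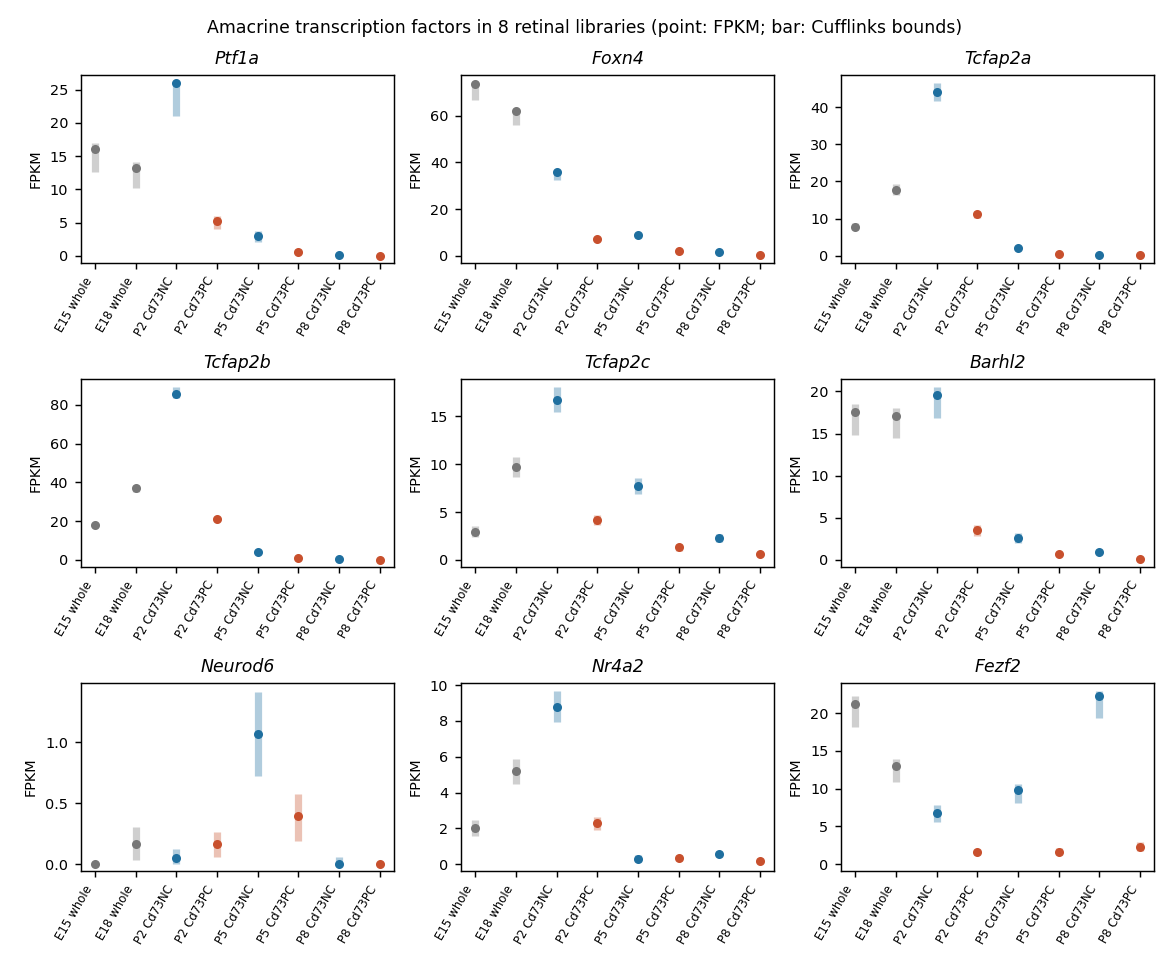
FPKM (vertical axis, linear, its own range for each gene) of the 9 genes in the 8 libraries (horizontal axis). Points are FPKM, vertical bars the Cufflinks bounds, grey is whole retina, blue Cd73NC and red Cd73PC. In 6 panels the highest point is P2 Cd73NC, while Foxn4 starts highest at E15 and Fezf2 ends highest at P8 Cd73NC.

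The upstream factors Foxn4 and Ptf1a were already high in the embryo. Foxn4 (chromosome 5, 114704173 to 114723770, minus strand, build mm9) stood at 73.7 FPKM at E15 and 61.9 FPKM at E18. In Cd73NC it was at 35.98, 9.03 and 1.57 FPKM at P2, P5 and P8. In Cd73PC it was at 7.15, 1.97 and 0.207 FPKM at the same stages. Foxn4 was therefore lower at every later stage, in whole retina and in each fraction, and its E15 level was 355 times its level in P8 Cd73PC. In the order of its levels, P5 Cd73NC and P2 Cd73PC had overlapping bounds, as had P5 Cd73PC and P8 Cd73NC, and the other neighbours had not.

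Ptf1a (chromosome 2, 19367290 to 19369128, plus strand) was at 16.1 FPKM at E15 and 13.1 FPKM at E18, with overlapping bounds. It was at 26.0, 2.91 and 0.134 FPKM in Cd73NC at P2, P5 and P8. In Cd73PC it was at 5.30, 0.636 and 0 FPKM. The estimated reads behind the Cd73NC values were 649, 66 and 4, and the 95% Poisson interval of the last, which covers counting error only, was 1.09 to 10.2 reads. For the 0 in P8 Cd73PC the same interval reached 3.69 reads, and 3 reads there would be 0.120 FPKM. The deposited P2 Cd73NC value, 26.0, lies just above its own upper bound of 25.8, the only 1 of the 72 values of these genes to fall outside its bounds. GENCODE places a noncoding transcript, Gm13336, on the opposite strand of Ptf1a, and these libraries did not keep strand, so reads of the pair cannot be told apart.

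Partners and regulators of the 9 genes were described from a list of 15. In Cd73NC, 2 were over 1.5-fold higher and 2 lower at P5 than at P2, and 0 higher and 7 lower at P8 than at P5. The E proteins that pair with basic helix-loop-helix factors remained present, with Tcf4 at 57.4, 79.0 and 50.3 FPKM at P2, P5 and P8 and Tcf3 at 62.0, 46.7 and 22.1 FPKM. Prdm13, a zinc finger gene downstream of Ptf1a that was singled out after its values were seen, was at 37.6, 16.6 and 2.53 FPKM. Prdm13 thus kept a measurable level at P8 in Cd73NC, where Ptf1a rested on 4 reads. Rbpj, the Notch effector that is also part of the Ptf1a complex, was at 27.4, 23.7 and 15.2 FPKM, and Rbpjl, its paralog in the pancreas, was at or near 0 in all 8 libraries.

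The AP-2 genes gave the tightest pair in the group. Tcfap2a (chromosome 13, 40811044 to 40829192, minus strand) was at 7.76 FPKM at E15, 17.8 at E18, 44.0, 2.13 and 0.182 in Cd73NC at P2, P5 and P8, and 11.2, 0.491 and 0.119 in Cd73PC. Tcfap2b (chromosome 1, 19198995 to 19228815, plus strand) was at 18.0 FPKM at E15, 36.9 at E18, 85.9, 4.01 and 0.371 in Cd73NC, and 21.1, 0.879 and 0.216 in Cd73PC. Both genes were higher at E18 than at E15 and higher again in P2 Cd73NC, and in P5 Cd73NC they had 4.85% and 4.68% of the P2 level. The ratio of Tcfap2b to Tcfap2a stayed between 1.79 and 2.32 in all 8 libraries, while the level of Tcfap2b covered a range of 397-fold. The low end of this range is loosely set. In P8 Cd73PC the bounds were 0.0196 to 0.235 FPKM for Tcfap2a and 0.126 to 0.305 FPKM for Tcfap2b. At P8 the bounds of the fractions overlapped for each gene.

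Over the 8 libraries each was the nearest gene to the other among 13411 genes that reached 1 FPKM, by Pearson correlation of log2(FPKM + 1), with r = 0.997. This correlation is a description over 8 libraries that share a strong stage and fraction pattern. The pair shares no exact run of 36 bases, the read length, in protein-coding transcripts. Of 3220 words of 36 bases in Tcfap2a transcripts, 0.497% occur in a transcript of another gene, and none of these is an AP-2 gene. Reads aligned with mismatches were not covered by this search. GENCODE lists a noncoding RNA, Gm16989, on the opposite strand within the Tcfap2a locus, and without strand its reads cannot be told apart from those of Tcfap2a.

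Tcfap2c (chromosome 2, 172375093 to 172384121, plus strand) followed another course. It was at 2.96 FPKM at E15 and 9.72 FPKM at E18. In Cd73NC it was at 16.7, 7.73 and 2.27 FPKM at P2, P5 and P8, and in Cd73PC at 4.14, 1.34 and 0.614 FPKM. Its P5 level in Cd73NC was 46.2% of P2. The ratio of Tcfap2c to Tcfap2b accordingly went from 0.164 at E15 and 0.195 in P2 Cd73NC to 1.93 in P5 Cd73NC and 6.13 in P8 Cd73NC.

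The remaining family members are Tcfap2d and Tcfap2e. Tcfap2e was at 0, 0.968 and 13.3 FPKM at E15, E18 and in P2 Cd73NC, and at 0.211 FPKM in P5 Cd73NC. Tcfap2d, named after its values were seen, was at 9.01 and 9.82 FPKM in the embryo and at 3.11, 3.58 and 0.739 FPKM in Cd73NC. Of the summed FPKM of the 5 genes, Tcfap2b made up 52.7% in P2 Cd73NC and 10.3% in P8 Cd73NC, and Tcfap2c made up 10.3% and 63.3%. The sum itself was 163 FPKM and 3.59 FPKM, so the larger share of Tcfap2c at P8 was a share of a small total.

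**Figure D2:**
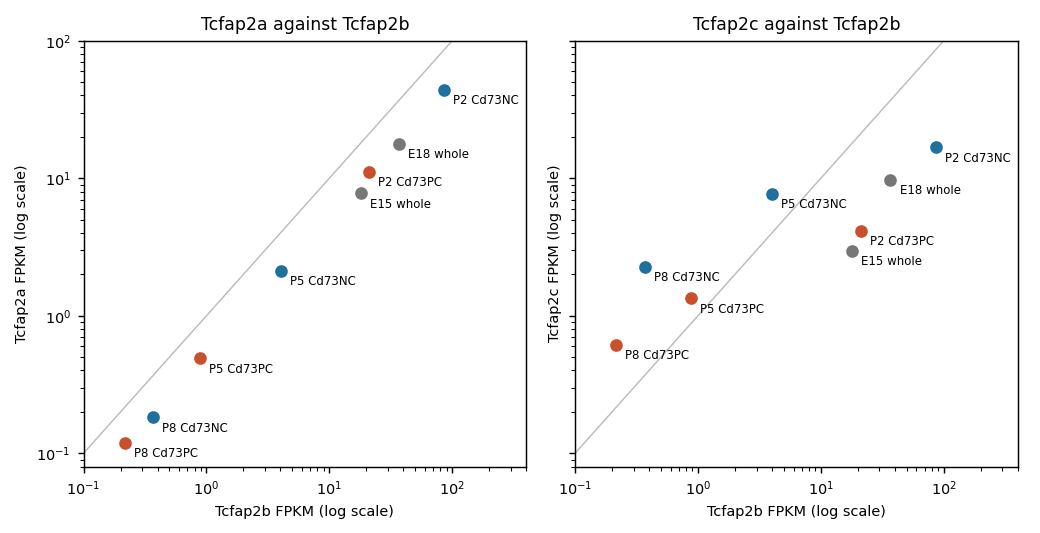
FPKM of Tcfap2a (left) and Tcfap2c (right) against Tcfap2b, both axes on a log scale, with 1 point per library (grey whole retina, blue Cd73NC, red Cd73PC) and a line of equal levels. Tcfap2a runs parallel to the line at a ratio of Tcfap2b to Tcfap2a of 1.79 to 2.32, while Tcfap2c crosses it between P2 and P5.

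The promoter windows of Tcfap2a and Tcfap2b are shown because the genes moved together. They are the 250 bases before the start of transcription, from RefSeq on build GRCm38.p6, which gives Tcfap2a 2 starts, and they read 5′ to 3′ along the gene. Capitals mark an E-box (CANNTG, the site bound by basic helix-loop-helix proteins such as Ptf1a) or an AP-2 site (GCCNNNGGC). Both motifs are palindromes in their fixed letters, so 1 search covers both strands, and no match overlapped another in the windows printed.
Tcfap2a, upstream start, chr13:40734921-40735170, minus strand: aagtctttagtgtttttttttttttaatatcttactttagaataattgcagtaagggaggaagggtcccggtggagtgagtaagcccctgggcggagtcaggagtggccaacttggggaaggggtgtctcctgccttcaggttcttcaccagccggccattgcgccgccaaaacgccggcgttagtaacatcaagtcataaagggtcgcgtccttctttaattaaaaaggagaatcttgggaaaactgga
Tcfap2a, downstream start, chr13:40733796-40734045, minus strand: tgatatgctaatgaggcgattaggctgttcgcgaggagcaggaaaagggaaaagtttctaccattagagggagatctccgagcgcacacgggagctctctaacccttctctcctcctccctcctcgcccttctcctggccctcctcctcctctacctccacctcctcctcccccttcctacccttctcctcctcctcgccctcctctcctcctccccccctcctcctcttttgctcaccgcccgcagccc
Tcfap2b, chr1:19211804-19212053, plus strand: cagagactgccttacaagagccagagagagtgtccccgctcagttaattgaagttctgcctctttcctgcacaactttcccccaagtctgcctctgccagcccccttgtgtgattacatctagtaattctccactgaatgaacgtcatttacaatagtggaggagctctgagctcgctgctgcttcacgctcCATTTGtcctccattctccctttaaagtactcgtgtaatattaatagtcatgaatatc
The Tcfap2b window holds 1 E-box and the Tcfap2a windows hold 0. No AP-2 site as spelled here lies in any of the 3 windows. Of 32851 mouse promoter windows of this length, 66.2% hold an E-box and 13.7% an AP-2 site. The windows held 47.6%, 60.4% and 46.4% G or C, against a median of 52.4% over all windows, and the downstream Tcfap2a window is rich in cytosine and thymine.

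Windows were found for 8 of the 9 genes, Tcfap2c being without one. Over all 9 windows, E-boxes occurred in those of Tcfap2b (1), Barhl2 (2) and Neurod6 (2), and an AP-2 site occurred in that of Nr4a2 (1). A match is a run of letters and not a measured site.

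Of the genes linked to subtypes, Barhl2 and Nr4a2 were highest in P2 Cd73NC and Neurod6 in P5 Cd73NC. Barhl2 (chromosome 5, 106881542 to 106887185, minus strand), a homeobox gene, was at 17.6 FPKM at E15, 17.1 at E18 and 19.5 in P2 Cd73NC, and the bounds of these 3 values overlapped. Its level in Cd73NC was 2.62 FPKM at P5 and 0.981 FPKM at P8, and in Cd73PC it was 3.59, 0.678 and 0.153 FPKM at P2, P5 and P8. Barhl2 was thus not separated by its bounds up to P2 Cd73NC, and it was lower at P5 and again at P8 in both fractions.

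Nr4a2 (chromosome 2, 56959637 to 56976414, minus strand) encodes an orphan nuclear receptor known from dopamine neurons. It was at 2.01 FPKM at E15, 5.18 at E18 and 8.78, 0.310 and 0.576 in Cd73NC at P2, P5 and P8. In Cd73PC it was at 2.28, 0.336 and 0.203 FPKM. At P5 its bounds overlapped between the fractions, 0.137 to 0.485 FPKM in Cd73NC and 0.166 to 0.524 FPKM in Cd73PC. Th, the dopamine synthesis gene, did not exceed 1.06 FPKM in any library.

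Members of the Nr4a family are also induced as immediate early genes when cells are handled, so the 15 immediate early genes were read beside Nr4a2. In P2 Cd73NC, 6 were over 1.5-fold higher than in E18 retina and 0 lower, where 3.20% of all genes were higher and 8.20% lower. Egr1 was at 0.239 and 0.877 FPKM in the embryonic retinas and at 9.01, 25.3 and 34.9 FPKM in Cd73NC at P2, P5 and P8. Btg2 was at 63.4 and 73.6 FPKM in the embryo and at 110, 189 and 92.3 FPKM in Cd73NC. Jun was at 28.8 and 39.0 FPKM in the embryo and at 70.3, 57.8 and 36.5 FPKM in Cd73NC, and Ier2 at 26.7 and 25.3 FPKM and at 42.2, 40.2 and 20.6 FPKM. The paralog Nr4a1 was at 1.30 and 2.48 FPKM in the embryo and at 1.98, 2.76 and 2.76 FPKM in Cd73NC. Among the Cd73NC libraries Nr4a2 was lowest at P5, with bounds that overlapped those of P8. Egr1 and Btg2 were higher at P5 than at P2, while Jun and Ier2 were highest in P2 Cd73NC, as Nr4a2 was. The part of cell handling in the Nr4a2 level was not tested.

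Neurod6 (chromosome 6, 55627813 to 55631257, minus strand), a basic helix-loop-helix gene of a small amacrine group, was near the limit of detection. It was at 0 FPKM at E15 and 0.170 FPKM at E18. It was at 0.0536, 1.07 and 0.00150 FPKM in Cd73NC at P2, P5 and P8, and at 0.168, 0.395 and 0 FPKM in Cd73PC. The estimated reads in Cd73NC were 2, 36 and less than 1, and those in Cd73PC were 8, 13 and 0. At P8, 3 reads would be 0.0675 FPKM in Cd73NC and 0.0803 FPKM in Cd73PC. The 95% Poisson interval of a count of 0 reached 3.69 reads. P5 was the only stage with more than 8 reads, and in both fractions the Neurod6 level was highest there, although in Cd73PC its bounds overlapped those of P2.

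Of the paralogs of Neurod6, Neurod1 and Neurod4 were far more abundant, and Neurod2 was between 0.0252 and 6.17 FPKM. They belong to a list of 12 paralogs of the 9 genes, of which 2 were over 1.5-fold higher and 1 lower in Cd73NC at P5 than at P2, and 2 higher and 3 lower at P8 than at P5. Neurod1, a gene of photoreceptors and amacrine cells, was at 202, 440 and 158 FPKM in Cd73NC and at 687, 626 and 568 FPKM in Cd73PC. Neurod4 was at 252, 684 and 544 FPKM in Cd73NC and at 349, 152 and 86.5 FPKM in Cd73PC. In Cd73NC both of these were highest at P5, as Neurod6 was.

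Within Cd73NC, Fezf2 ran against 7 of the other genes from P2 to P8. Fezf2 (chromosome 14, 13174406 to 13178379, minus strand) was at 21.2 FPKM at E15 and 13.0 FPKM at E18. In Cd73NC it was at 6.79, 9.79 and 22.3 FPKM at P2, P5 and P8, and in Cd73PC at 1.60, 1.64 and 2.33 FPKM. Among the Cd73NC libraries it was lowest at P2, where 7 of the other genes were highest, and its P8 level was 329% of its P2 level. The bounds of P8 Cd73NC, 19.4 to 22.9 FPKM, overlapped those of E15, 18.2 to 22.3 FPKM, so the levels at the beginning and at the end of the series were not separated. Its paralog Fezf1 was at 1.56 FPKM at E15 and below 1 FPKM in the other 7 libraries. Fezf2 shared its highest library, P8 Cd73NC, with 11 of the 12 bipolar markers and 4 of the 24 other amacrine regulators. Which cells its reads came from was not tested.

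The promoter window of Fezf2, which had the opposite course in Cd73NC, is shown for comparison with those of the AP-2 genes.
Fezf2, chr14:12345866-12346115, minus strand: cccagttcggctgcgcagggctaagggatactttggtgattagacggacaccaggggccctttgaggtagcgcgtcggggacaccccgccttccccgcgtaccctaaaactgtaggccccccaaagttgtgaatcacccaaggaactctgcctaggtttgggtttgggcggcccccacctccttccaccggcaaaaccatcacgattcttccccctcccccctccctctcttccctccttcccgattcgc
It holds 0 E-boxes and 0 AP-2 sites by the spellings used above, and 61.2% of its bases are G or C.

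The first comparison over these genes asked how the fractions differ at each stage. At P2, 8 of the 9 genes were over 1.5-fold lower in Cd73PC than in Cd73NC on the FPKM + 1 scale, where 14.4% of 21816 genes were lower and 8.56% higher. Many genes in the tables are silent in retina, and of the 12335 genes at 1 FPKM or more in either P2 library 25% were lower. At P5, 7 of the 9 were lower, against 15.5% of all genes and 27% of those at 1 FPKM or more. At P8, 4 of the 9 (Foxn4, Tcfap2c, Barhl2 and Fezf2) were lower, against 18.6% of all genes and 31.3% of those at 1 FPKM or more. None of the 9 was over 1.5-fold higher in Cd73PC at any of the 3 stages, where 8.56%, 7.02% and 7.54% of all genes were. The smaller count at P8 went with low levels in both fractions, since only Fezf2, Tcfap2c and Foxn4 were above 1 FPKM in P8 Cd73NC. Without the added 1, 7 genes were over 1.5-fold lower at P8, and after quantile normalization 2 were.

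As deposited, without the added 1, the Cd73PC levels of the 8 genes were 18.4% to 26.0% of the Cd73NC levels at P2. Barhl2 had the lowest share, Nr4a2 the highest, and the log2 ratios on FPKM + 1 were −2.16 and −1.57. At P5 the share was 16.7% to 25.8% for 7 genes, 37.0% for Neurod6 and 108% for Nr4a2. Neurod6, on 8 reads against 2, was at 314% at P2. At P8 the share was 10.4% for Fezf2, 13.2% for Foxn4 and 27.02% for Tcfap2c, and for genes below 1 FPKM in Cd73NC it was 15.6% for Barhl2, 35.3% for Nr4a2, 58.4% for Tcfap2b and 65.1% for Tcfap2a. Over all genes at 1 FPKM or more in Cd73NC, the median share was 87.5%, 85.9% and 82.9% at P2, P5 and P8, and 6.67%, 10.4% and 15.9% of genes had a share below 30%.

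The share differed among the lists of other cells. The 12 progenitor markers had a median share of 25.4% at P2, 27.6% at P5 and 21.3% at P8. Ccnd1, the cyclin of dividing progenitors, was at 1095 FPKM in P2 Cd73NC and 272 FPKM in P2 Cd73PC. The Müller glia markers had medians of 35.5%, 21.5% and 18.6%, and the bipolar markers, whose median level in P2 Cd73NC was 0.670 FPKM, had 108%, 18.8% and 10.3%. The ganglion cell markers had medians of 40.9%, 90.6% and 130%, over 8, 5 and 5 of 13 genes. The horizontal cell markers had 33.4%, 23.2% and 24.96%, over 4, 5 and 4 of 9 genes. Ptf1a itself is among these genes at P2 and P5, and the other genes at P2 are Sept4, Tpm3 and Prox1. The endothelial, blood and microglia markers had 26.6%, 67.7% and 53.3%. The amacrine lists described below had like shares at P2. The transmitter and synaptic genes had medians of 24.8%, 22.4% and 30.7%, over 12, 10 and 8 of 25 genes. The other amacrine regulators had 30.8%, 21.0% and 18.6%, over 18, 20 and 19 of 24 genes. All of these medians are over genes at 1 FPKM or more in Cd73NC, a filter that drops some genes that are higher in Cd73PC. At P2 it kept 6 of the 13 endothelial, blood and microglia markers and 5 of the 12 bipolar markers. In P2 Cd73PC, 8 and 7 reached 1 FPKM, and over these the median Cd73NC level was 76.9% and 24.6% of Cd73PC. Whether the Cd73PC reads of the 9 genes came from cells carried over in the sort was not tested.

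**Figure D3:**
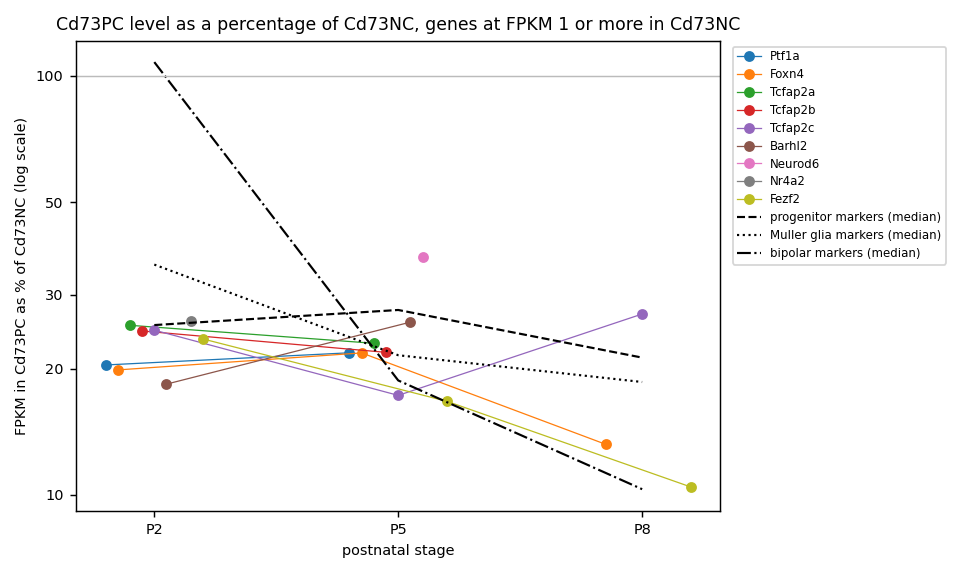
FPKM in Cd73PC as a percentage of Cd73NC (vertical axis, log scale) at P2, P5 and P8 (horizontal axis) for the amacrine transcription factors with at least 1 FPKM in Cd73NC, with the medians of 3 marker lists as black lines and equal levels as a grey line. At P2 the 8 genes shown lie between 18.4% and 26.0%, beside the progenitor median of 25.4%. The amacrine transmitter and synaptic genes, which are not drawn, had a median of 24.8% at P2.

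The second comparison followed Cd73NC over time. From P2 to P5, 7 of the 9 genes were over 1.5-fold lower, against 9.51% of all genes and 16.3% of those at 1 FPKM or more in either library, and 1, Neurod6, was higher, against 7.93%. From P5 to P8, again 7 were lower, against 7.78% and 13.2%, and 1, Fezf2, was higher, against 8.47%. Foxn4, Ptf1a, the 3 AP-2 genes and Barhl2 were lower in both steps. The log2 ratio of P5 to P2 on FPKM + 1 was −4.11 for Tcfap2b, −3.84 for Tcfap2a, −2.79 for Ptf1a and −1.02 for Tcfap2c. Of the 8 genes at 1 FPKM or more at P2, 7 had a P8 level below 50% of P2, where 16.7% of all 11883 such genes had, and the median share kept was 4.69% against 91.0%.

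The third comparison followed Cd73PC, where the same genes sat at lower levels. From P2 to P5, 7 of the 9 were over 1.5-fold lower, against 8.57% of all genes and 15.2% of those at 1 FPKM or more in either library, and 0 were higher, against 3.36%. From P5 to P8, 3 (Foxn4, Ptf1a and Tcfap2b) were lower, against 4.78% and 8.54%, and 0 were higher, against 3.31% of all genes. This count was 7 with a pseudocount of 0.1, 6 without one, 5 after quantile normalization and 1 at a threshold of 2-fold. By P8 Fezf2 was the only one above 1 FPKM in Cd73PC.

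The embryonic and perinatal steps had the opposite balance. From E15 to E18, Tcfap2a, Tcfap2b, Tcfap2c and Nr4a2 were over 1.5-fold higher (4 of 9, against 4.61% of all genes and 7.6% of expressed genes) and Fezf2 was lower (1 of 9, against 2.09%). The log2 ratios were 1.10, 0.996, 1.44, 1.04 and −0.66 in that order. From E18 to P2 Cd73NC, Ptf1a and the same 4 genes were higher (5 of 9, against 3.20% of all genes), and Foxn4 and Fezf2 were lower (2 of 9, against 8.20%). This last step sets whole retina against a sorted fraction, so the removal of rods and the passage of time cannot be told apart.

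By the Cufflinks bounds alone, which separate more genes than the fold does, the bounds of the 2 libraries were apart for 8, 8 and 6 of the 9 genes between fractions at P2, P5 and P8, against 41.7%, 38.3% and 43.3% of all genes and 66.7%, 63% and 67.8% of those at 1 FPKM or more in either library. The P8 count was thus near the share of expressed genes. They were apart for 7 genes from E15 to E18 and 7 from E18 to P2 Cd73NC, against 19.8% and 30.6% of all genes and 31.6% and 48.5% of expressed genes. They were apart for 9 and 8 genes in the 2 steps of Cd73NC, against 37.0% and 34.5% of all genes and 59% and 55.2% of expressed genes. In the steps of Cd73PC they were apart for 7 and 7 genes, against 32.3% and 24.1% of all genes and 53.9% and 40.4% of expressed genes. A value of 0 has bounds of 0 and 0 in these files, as for Ptf1a and Neurod6 in P8 Cd73PC and Neurod6 at E15. With no error given, Ptf1a counts as apart between fractions at P8 and Neurod6 from E15 to E18. Both genes count as apart from P5 to P8 in Cd73PC.

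The products of mature amacrine cells were read from a list of 25 transmitter and synaptic genes. In Cd73NC, 2 were over 1.5-fold higher and 8 lower at P5 than at P2, and 2 were higher and 7 lower at P8 than at P5, with a median P8 level of 29.5% of P2 over the 12 genes at 1 FPKM or more at P2. Gad1, Gad2 and Slc32a1 encode the enzymes that make GABA and its vesicular transporter, and were picked after their values were seen. Gad1 was at 5.47, 0.152 and 0.217 FPKM in Cd73NC at P2, P5 and P8, Gad2 at 11.9, 4.28 and 1.54 FPKM, and Slc32a1 at 16.0, 4.21 and 1.21 FPKM. All 3 were highest in P2 Cd73NC among the 8 libraries, as Ptf1a, Tcfap2a and Tcfap2b were. Most of the list had another course. Of the 25 genes, 4 were highest in P2 Cd73NC, while 10 were highest at E15 and 7 at E18. The count at E15 includes Vip, which was at 0 in every library.

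Calb2, a calcium binding protein of amacrine and ganglion cells, was highest at E18 with 116 FPKM and stood at 18.8, 8.86 and 0.607 FPKM in Cd73NC. Slc6a9, the glycine transporter used as a marker of glycinergic amacrine cells, was higher in Cd73PC, at 47.9, 72.3 and 50.7 FPKM against 6.56, 40.7 and 10.4 FPKM in Cd73NC. Chat, the defining gene of starburst amacrine cells, did not exceed 0.254 FPKM in any library, and Vip was at 0 in all 8.

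Other regulators that amacrine cells use did not share 1 course. Of 24 such genes, 6 were over 1.5-fold higher and 10 lower in Cd73NC at P5 than at P2, and 4 higher and 9 lower at P8 than at P5. Pax6, which keeps progenitors competent and persists in amacrine cells, was at 190, 65.0 and 27.7 FPKM in Cd73NC. Isl1 and Prox1, which bipolar cells also express, were at 4.79, 26.8 and 294 FPKM and at 18.1, 40.9 and 166 FPKM. Lmo4 was at 81.0, 19.0 and 103 FPKM, with its low at P5.

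Markers of other cell types in Cd73NC also differed with age. Of the 12 bipolar markers, 11 were over 1.5-fold higher at P8 than at P5, and the remaining gene, Irx5, was at 17.9 and 13.9 FPKM. Pcp2 was at 2.62, 11.99 and 468 FPKM in Cd73NC, and the summed level of the 12 markers was 48.2, 112 and 1653 FPKM. Of the 12 progenitor markers, 9 were lower at P5 than at P2 and 10 lower at P8 than at P5. Müller glia markers were higher at P5 than at P2 for 5 of 10 and lower for 0. Of the 9 horizontal cell markers, Lhx1 and Onecut3 were at or below 0.124 FPKM in all 6 sorted libraries, and Calb1 at or below 0.477 FPKM. Onecut1 was at 0.774, 0.427 and 0.0812 FPKM in Cd73NC at P2, P5 and P8, and at 1.61 FPKM in P2 Cd73PC. Onecut2 was at 0.872, 1.53 and 1.34 FPKM in Cd73NC. Sept4, Tpm3 and Prox1, which other cells also use, were at 18.9, 90.9 and 18.1 FPKM in P2 Cd73NC. The 9 horizontal cell markers include Ptf1a, at 26.0 FPKM in P2 Cd73NC, and their summed level was 156, 140 and 261 FPKM in Cd73NC. Blood was also in the sorted libraries: Hba-a1, a hemoglobin gene, was at 96.1, 1346 and 5073 FPKM in Cd73NC and at 29.1, 911 and 1994 FPKM in Cd73PC. The part of these shifts in the levels of the 9 genes was not tested.

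**Figure D4:**
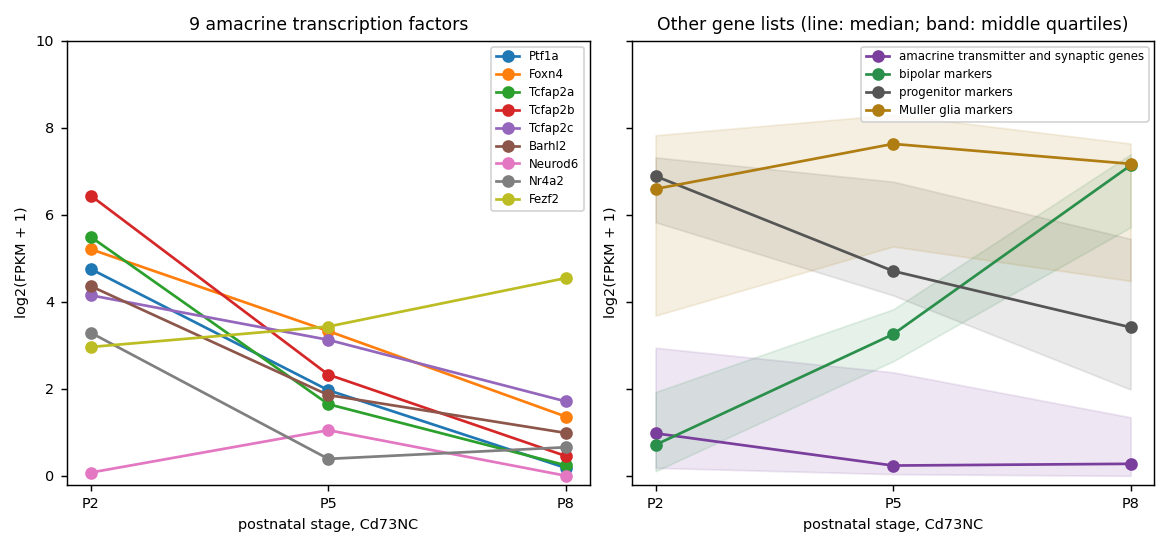
log2(FPKM + 1) (vertical axis) in Cd73NC at P2, P5 and P8 (horizontal axis). The left panel has 1 line for each of the 9 genes, and the right panel has the median (line) and middle quartiles (band) of 4 lists. Fezf2 is the only line of the left panel that is highest at P8, and on the right the bipolar markers are highest at P8 while the progenitor markers are lower at each stage.

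Genes with the most similar course over the 8 libraries were sought for each of the 9 by Pearson correlation of log2(FPKM + 1), among the same 13411 genes. Foxn4 was nearest to Ccnf, Smtn and Cdca7l (r = 0.998, 0.996 and 0.994). Ccnf, a cyclin of dividing cells, was at 24.3 FPKM at E15 and 1.85 FPKM in P8 Cd73NC. Barhl2 was nearest to Fam111a, Mcm4 and Pola2 (r = 0.998 each), and the last 2 encode parts of the DNA replication machinery. Med8 and Hells were among the genes nearest to Ptf1a (r = 0.997 and 0.994), although the level of Med8 ranged only from 12.8 to 23.9 FPKM.

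After each other, Tcfap2a was nearest to Med4 and Cenpq (r = 0.996 and 0.989) and Tcfap2b to Crabp1 and Med4 (r = 0.994 and 0.991). Crabp1, a retinoic acid binding protein, was at 270, 12.7 and 2.53 FPKM in Cd73NC at P2, P5 and P8. Tcfap2c was nearest to Fam19a1, 2900052N01Rik and Slc27a6 (r = 0.994, 0.992 and 0.988). Nr4a2 was nearest to the histone genes Hist1h2ab, Hist1h2ad and Hist1h2ah (r = 0.994, 0.992 and 0.992), which are close copies of each other.

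Fezf2 was nearest to Tmem200a, Pcdhga12 and Dpysl5 (r = 0.999, 0.993 and 0.992). Tmem200a was at 8.14 and 5.55 FPKM in the embryo, at 2.71, 3.99 and 8.80 FPKM in Cd73NC and at 0.429, 0.404 and 0.840 FPKM in Cd73PC. Neurod6 was nearest to Abhd4, Hfe2 and Tacr1, at a lower r (0.960, 0.901 and 0.891). Among the 9 genes themselves, the 21 pairs without Neurod6 and Fezf2 had r from 0.734 to 0.997 with a median of 0.883. Fezf2 had r from 0.138 to 0.505 with those 7 genes, and Neurod6 had r from −0.34 to 0.233. All of these correlations rest on the same 8 libraries. The names of the nearest genes depended on the pseudocount, since 9 of the 27 were shared with those found on log2(FPKM + 0.1). By Spearman rho 1 was shared, but rho over 8 libraries ties at its maximum. Hells with Ptf1a, Smtn with Foxn4 and Tcfap2a with Tcfap2b had a rho of 1, which no gene can exceed. The count by rho thus rests on the order of tied genes and cannot show a dependence on the measure.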

How the data were processed

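Poly(A) RNA of 2 whole retinas and 6 sorted fractions, 1 library per condition, was sequenced as single 36-base reads with a kit that does not keep strand. The authors aligned reads to mm9 with TopHat2 2.0.8b and deposited FPKM per gene, with bounds, from Cufflinks 2.1.1; CASAVA 1.8.2 and bcl2fastq 1.8.4 are also named in the submitters' processing notes. FPKM depends on the mapped total and on the transcript model, and the deposited tables hold no counts.

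Each table held 23021 rows. Rows of small RNAs (797) were left out, rows of 1 symbol were summed to 21827 genes, and values that Cufflinks failed to estimate (4 to 10 per library) were treated as missing. Libraries were compared by the ratio of FPKM + 1, called past 1.5-fold, with no test. Scripts used Python 3.11.15, numpy 2.4.6, pandas 2.3.3 and scipy 1.17.1, and were tested on simulated data. Depth was read from single-exon genes, where 69.7% to 84.0% of the 62 to 89 values per library came within 0.05 of a whole number of reads. Reads are PCR copies without molecular identifiers, so intervals and limits from reads cover counting error only.

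The genes named are the 9 transcription factors, the 3 genes nearest to each by Pearson correlation, up to 4 genes of highest FPKM in each further list, Nt5e and immediate early genes, and others are said to be picked after their values were seen or stand beside a list as its markers. Some genes that this rule names are not reported here. The 9 genes and all lists were chosen with earlier results of these data known. Alternatives were other pseudocounts, scalings, filters and thresholds. Promoter sequences came from RefSeq on GRCm38.p6, a different build from that of the FPKM tables, and no coordinate was converted.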

Additional observations from a re-analysis of the deposited data

Results flagged for a closer look

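The difference between the fractions did not keep its sign over the stages for Neurod6 and Nr4a2. The log2 ratio of Cd73PC to Cd73NC on FPKM + 1 for Neurod6 was 0.15 at P2. It was −0.57 at P5 and −0.0022 at P8. The P2 value rests on 8 reads against 2 with overlapping bounds, and the P8 value on no whole read in either fraction. Nr4a2 had a log2 ratio of −1.57 at P2, of 0.028 at P5, where the bounds overlapped, and of −0.39 at P8. From P5 to P8 the log2 ratio of Nr4a2 was 0.27 in Cd73NC and −0.15 in Cd73PC, with overlapping bounds in each fraction. With 1 library per condition, none of these differences between stages or fractions was tested.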

How the results depend on the processing

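No paired analysis was run, and with 1 library in each condition no replicate could be left out. The fractions of a stage came from the same retinas, but a fit with the 3 stages as blocks was not run, since it would take different ages as replicates. In the comparisons of the 9 genes, scaling to the upper quartile and the added demand of bounds that do not overlap kept the counts past 1.5-fold within 1.5 times the values given. A minimum of 1 FPKM, unsummed rows and kept small RNAs could not change these counts. Each of the 9 genes has 1 row, reaches 1 FPKM in some library and is no small RNA. The count at P8 between fractions, 4, was 7 without a pseudocount and 2 after quantile normalization. The count from P5 to P8 in Cd73PC, 3, was 7 with a pseudocount of 0.1, 6 without one, 5 after quantile normalization and 1 at a threshold of 2-fold. At 2-fold, the count from E15 to E18 went from 5 to 3 and that from E18 to P2 Cd73NC from 7 to 2. No log2 ratio of the 9 genes that was past 1.5-fold changed sign. Quantile normalization moved the median log2 ratio of expressed genes by 0.17 and 0.24 between fractions at P5 and P8 and by 0.13 from P2 to P5 in Cd73PC. Of the 27 nearest genes, 9 were shared with those found at a pseudocount of 0.1, so the genes named as nearest depend on the pseudocount. With Spearman's rho 1 was shared, but rho over 8 libraries ties at its maximum, so this count cannot show such a dependence. Values below about 0.1 FPKM stand for 3 reads or fewer of genes such as Neurod6 and Ptf1a.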

Other observations

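Prdm13 and Pax6 had a P5 level in Cd73NC of 16.6 and 65.0 FPKM, while Ptf1a, Tcfap2a and Tcfap2b had 2.91, 2.13 and 4.01 FPKM. Among other genes of amacrine cells, Npy, a neuropeptide, was at 19.1, 30.8 and 13.8 FPKM in Cd73NC at P2, P5 and P8, and Dab1, an adaptor of reelin signalling found in AII amacrine cells, was at 13.4, 15.6 and 33.7 FPKM. Both were chosen after their values were seen.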
